A study of Mus musculus with 9 samples.

Results

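Immunoglobulin genes, the gene segments from which antibodies are built, were examined in epididymal adipose tissue of wild-type male C57BL/6J mice before and during weight loss. Members were the rows of the gene count table annotated as immunoglobulin genes, pseudogenes left out, and were selected on their count, which had to reach 10 or more reads summed over the 9 libraries. The sum ran over the same libraries that are compared below, so a gene high in a single library could enter. The rule kept 144 of 268 such rows, in a table of 56748 genes. They were 11 constant genes, 126 variable genes (59 heavy chain, 65 kappa and 2 lambda) and 7 joining genes, on chromosomes 12 (69 genes, heavy chain), 6 (70 genes, kappa) and 16 (5 genes, lambda). Of the other 124 rows, 66 had no read in any library, and all 19 diversity genes fell below the minimum. The mice were fed a high-fat diet (HFD) from 8 weeks of age for 8 weeks (Pre), then a standard diet (SD) for 1 week (WL1) or 2 weeks (WL2), with 3 libraries per phase, so that all 3 phases share the HFD period and no phase was kept on SD throughout. The whole tissue was sequenced, so each value mixes adipocytes with every other cell in the fat pad, and fewer cells of a type and less RNA per cell cannot be told apart. The sources used here do not say whether each library came from a single mouse, and p-values measure the spread between these 3 libraries per phase.

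An antibody consists of paired heavy and light chains. In a developing B cell, a variable, a diversity and a joining segment of the heavy chain locus are joined in the DNA, and a variable and a joining segment of the kappa or lambda locus make the light chain. The rearranged variable exon is then spliced to a constant gene, whose identity sets the antibody class: *Ighm* gives IgM, *Ighd* IgD, *Ighg1*, *Ighg2b*, *Ighg2c* and *Ighg3* the IgG subclasses, and *Igha* IgA. Each B cell clone uses its own heavy and light variable segments, so reads spread over many variable genes where many clones give RNA and gather on few where a few clones do. Adipose tissue of mice harbours B-1 and B-2 cells, the former known as a source of natural IgM, as well as plasma cells, which secrete antibody and carry very large amounts of immunoglobulin mRNA.

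4 variable genes are shown as sequence, since the clonal pattern described below turns on them. *Ighv11-2* and *Igkv14-126* are known together as the heavy and light chain of B-1 cells that bind phosphatidylcholine, and they had the most reads of their chains in 4 libraries each. *Ighv2-6* and *Igkv19-93* were the leading heavy and light variable genes of a single library, WL1 2. Each sequence is the 3′ part of the germline coding sequence, written 5′ to 3′, from the GENCODE M21 transcripts of GRCm38. It covers 300 of 353 coding bases for *Ighv11-2*, 298 of 353 for *Igkv14-126*, 300 of 350 for *Ighv2-6* and 298 of 347 for *Igkv19-93*. The 5′ part of the coding sequence is not printed. The capitals run from the last in-frame cysteine codon to the end of the segment, the germline part of the third complementarity-determining region. The printed part of *Ighv11-2* lies at chr12:114048241-114048540 on the minus strand and that of *Igkv14-126* at chr6:67896345-67896642 on the plus strand. The printed part of *Ighv2-6* lies at chr12:113716670-113716969 on the minus strand and that of *Igkv19-93* at chr6:68736297-68736594 on the minus strand.

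Ighv11-2: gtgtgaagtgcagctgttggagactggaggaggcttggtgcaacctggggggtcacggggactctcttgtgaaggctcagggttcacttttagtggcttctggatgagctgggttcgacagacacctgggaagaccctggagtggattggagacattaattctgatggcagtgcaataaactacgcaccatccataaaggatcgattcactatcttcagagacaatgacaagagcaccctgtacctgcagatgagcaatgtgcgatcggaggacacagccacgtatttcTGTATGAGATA

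Igkv14-126: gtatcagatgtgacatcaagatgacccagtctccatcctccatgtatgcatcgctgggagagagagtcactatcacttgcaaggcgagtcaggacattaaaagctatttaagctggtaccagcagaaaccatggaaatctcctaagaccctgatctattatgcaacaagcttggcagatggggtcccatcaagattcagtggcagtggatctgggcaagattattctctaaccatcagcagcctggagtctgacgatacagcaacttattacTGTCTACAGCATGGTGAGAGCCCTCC

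Ighv2-6: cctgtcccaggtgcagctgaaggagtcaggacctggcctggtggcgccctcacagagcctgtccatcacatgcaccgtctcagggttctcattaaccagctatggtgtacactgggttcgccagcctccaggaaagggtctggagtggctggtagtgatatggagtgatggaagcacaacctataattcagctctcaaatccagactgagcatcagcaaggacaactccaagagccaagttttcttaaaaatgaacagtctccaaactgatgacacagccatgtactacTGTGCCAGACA

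Igkv19-93: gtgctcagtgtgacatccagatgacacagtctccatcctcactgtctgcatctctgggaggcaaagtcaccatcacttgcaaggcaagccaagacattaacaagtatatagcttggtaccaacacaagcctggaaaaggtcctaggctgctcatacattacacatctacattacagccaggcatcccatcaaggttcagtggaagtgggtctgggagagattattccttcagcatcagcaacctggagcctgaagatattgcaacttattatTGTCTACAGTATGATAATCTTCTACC

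The libraries held between 16434450 and 22729072 counts, of which immunoglobulin genes made up 0.107%, 0.434% and 0.128% at Pre and 0.0242% to 0.0499% at WL1 and WL2. The adipocyte list (*Adipoq*, *Lep*, *Plin1* and 7 others) summed to between 27500 and 48400 CPM (counts relative to the library total, scaled by edgeR's trimmed mean of M-values) in every library, as the tissue label states. The library Pre 2 stood apart from the other 8 in immunoglobulin and lymphocyte RNA, and values are therefore given with and without it. Its summed variable genes reached 925 CPM, 18.9 times the median of the other 8 libraries, and its light chain constant genes reached 1060 CPM, 17.1 times that median. Many genes of B cells were high in the same library: *Ms4a1* (CD20) reached 45.8 CPM against 0.354 to 2.6 elsewhere, and *Cd79a*, a signalling chain of the B cell receptor, 67.0 against 0.955 to 5.38. Of the B cell receptor and surface list, 11 of 14 genes were highest in Pre 2. In the B cell transcription and signalling, antibody-secreting cell and B-1 cell lists, these were 9 of 14, 9 of 16 and 3 of 8. *Cd180*, in contrast, had 21.3 CPM in Pre 2 and 14.0 to 78.1 elsewhere, and *Ebf1* 87.6 against 108 to 201. All 12 genes of the T cell list were also highest in Pre 2, with a summed level of 84.0 CPM against 9.67 to 17.0. Of the 13 genes of the lymph node stroma and vessel list in the table, 4 were highest in Pre 2, and the list summed to 531 CPM there against 174 to 446 elsewhere. *Cxcl13*, a chemokine that draws B cells into follicles, reached 153 CPM against 0.112 to 7.99. The other genes of the list highest in Pre 2 were *Cr2* (6.39 CPM against 0.0922 to 0.752), *Ccl19* (2.2 against 0.138 to 1.92) and *Glycam1* (15 reads, and no read elsewhere). In contrast, *Ccl21a* had 26.0 CPM in Pre 2 and 67.7 in Pre 1, and *Madcam1* had no read in Pre 2. The part of these cells in the immunoglobulin values was not tested.

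**Figure D1:**
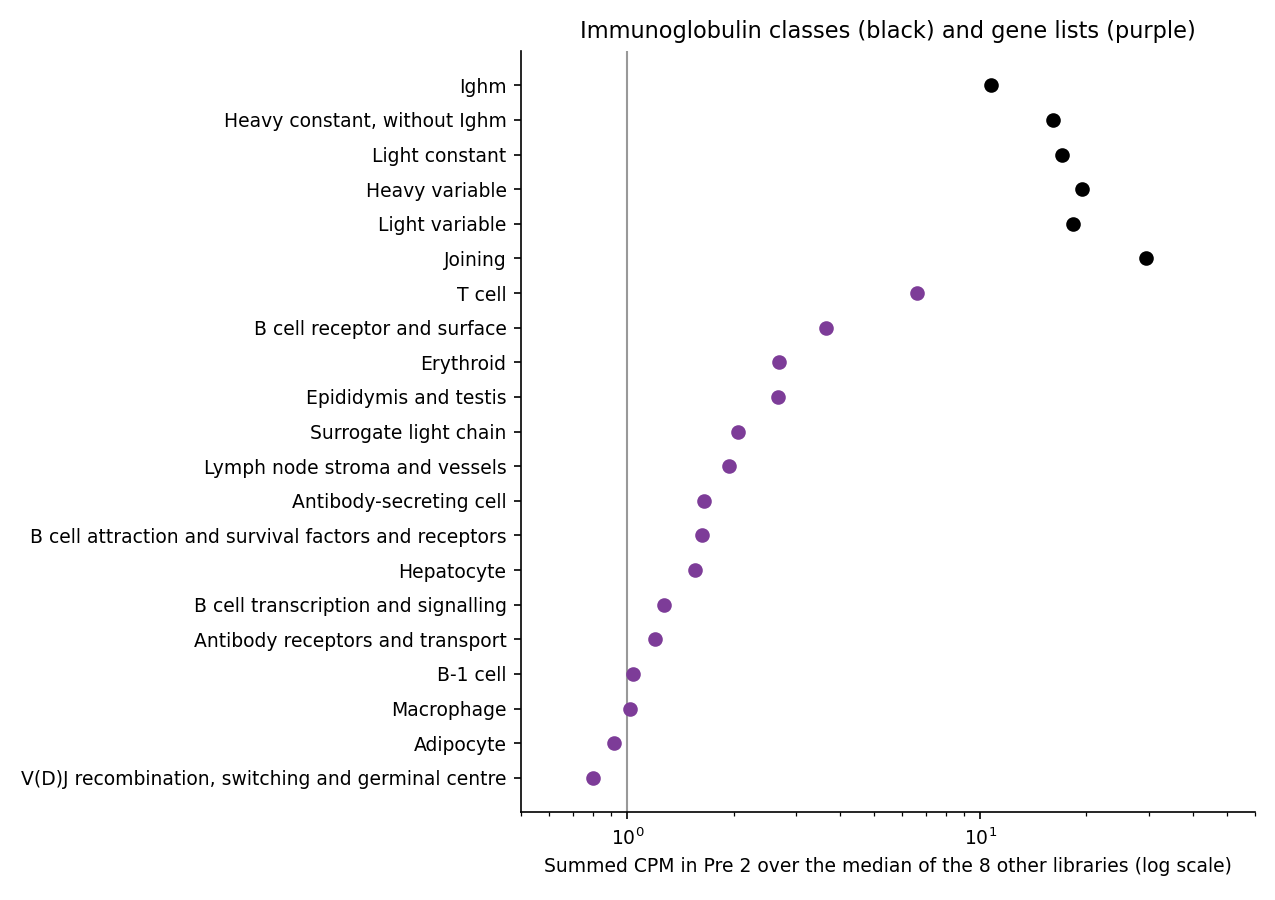
Level in the library Pre 2 divided by the median of the 8 other libraries, on a log axis, for the summed CPM of immunoglobulin classes (black points) and of the gene lists (purple points). Every immunoglobulin class sits above 10, the T cell list at 6.64 and the B cell receptor and surface list at 3.66, while the macrophage and adipocyte lists sit at 1.02 and 0.914. The antibody-secreting cell, B cell transcription and signalling, and B-1 cell lists sit at 1.65, 1.27 and 1.04. The ratio for *Ighm* (10.7) also holds its difference between phases, because 6 of the 8 other libraries are WL1 or WL2. The same holds for the erythroid list (2.69).

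*Ighm*, the constant gene of IgM (ENSMUSG00000076617), had the most reads of all immunoglobulin genes and fell during weight loss. The table places it on chromosome 12 from 113382178 to 113386350 on the minus strand, in coordinates that are not those of GRCm38 genes and whose build the sources used here do not name. It had 18987, 45400 and 27003 reads at Pre, 2926, 3489 and 5065 at WL1, and 4281, 4106 and 2369 at WL2. The lowest Pre library thus lay above every weight loss library, and the WL1 and WL2 values overlapped. The mean of the 3 Pre libraries was 1620 ± 764 CPM (SD), that of the 3 WL1 libraries 201 ± 72.3 CPM and that of the 3 WL2 libraries 201 ± 55.6 CPM. The change was -3.01 on the log2 scale at WL1 (SE 0.369, edgeR quasi-likelihood test, adjusted p = 0.00151) and -3.01 at WL2 (SE 0.369, adjusted p = 0.000793). Without Pre 2, it was -2.56 at WL1 (SE 0.293, adjusted p = 0.00192) and -2.56 at WL2 (SE 0.293, adjusted p = 0.000897). Between WL2 and WL1 the difference was 0.0012 on the log2 scale (SE 0.343, adjusted p = 1).

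*Igkc*, the kappa constant gene that most mouse antibodies carry as their light chain, did not follow this course. It had 240, 18219 and 820 reads at Pre, 647, 1648 and 1160 at WL1, and 2192, 2001 and 686 at WL2. Apart from Pre 2, the Pre libraries lay within or below the range of the weight loss libraries, with the lowest value of all 9 in Pre 1. The difference between WL1 and Pre was -2.58 on the log2 scale (SE 1.21, adjusted p = 0.221) with Pre 2 and 1.17 without it (SE 0.54, adjusted p = 0.232). At WL2, the difference from Pre was -1.95 (SE 1.18, adjusted p = 0.323) with Pre 2 and 1.80 without it (SE 0.552, adjusted p = 0.0789). The direction for *Igkc* thus depended on the library Pre 2, and no comparison passed the threshold.

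**Figure D2:**
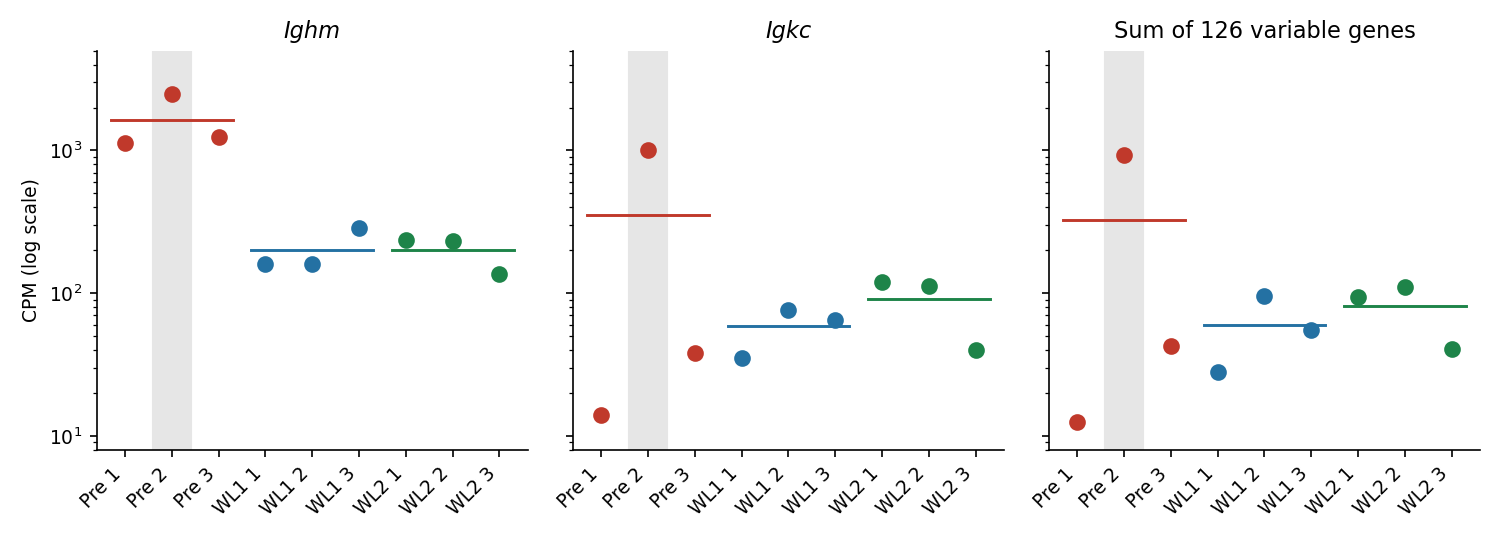
CPM on a log axis of *Ighm*, of *Igkc* and of the 126 variable genes summed, in each of the 9 libraries (points, coloured by phase), with the mean of each phase as a line and the library Pre 2 shaded. *Ighm* is high in all 3 Pre libraries, whereas *Igkc* and the variable genes are high only in Pre 2 among these 9 libraries.

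Set against each other per length, *Ighm* and *Igkc* diverged in Pre 1 and Pre 3. The number of *Ighm* reads per kilobase for each *Igkc* read per kilobase was 22.3 in Pre 1, 0.703 in Pre 2 and 9.29 in Pre 3. It was 1.28, 0.597 and 1.23 at WL1, and 0.551, 0.579 and 0.974 at WL2. Pre 2 therefore fell among the weight loss libraries, and Pre 1 and Pre 3 lay above all of them.

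The heavy chain variable genes, which are spliced to *Ighm* in the mRNA of an IgM heavy chain, showed the same split. The 59 variable genes together gave 3.63 reads per 1000 *Ighm* reads in Pre 1, 115 in Pre 2 and 11.8 in Pre 3. They gave 40.7, 288 and 52.7 at WL1, and 108, 129 and 79.8 at WL2. The high value in WL1 2 belonged to a library in which *Ighm* made up 54.53% of heavy constant reads, and counted against all heavy constant genes it was 157. The light chain stayed close to even: variable reads per 1000 light chain constant reads ranged from 522 to 688 over the 9 libraries. Pre 1 and Pre 3 thus had the fewest heavy chain variable reads beside their *Ighm* reads of the 9 libraries. The source of the *Ighm* reads was not tested.

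**Figure D3:**
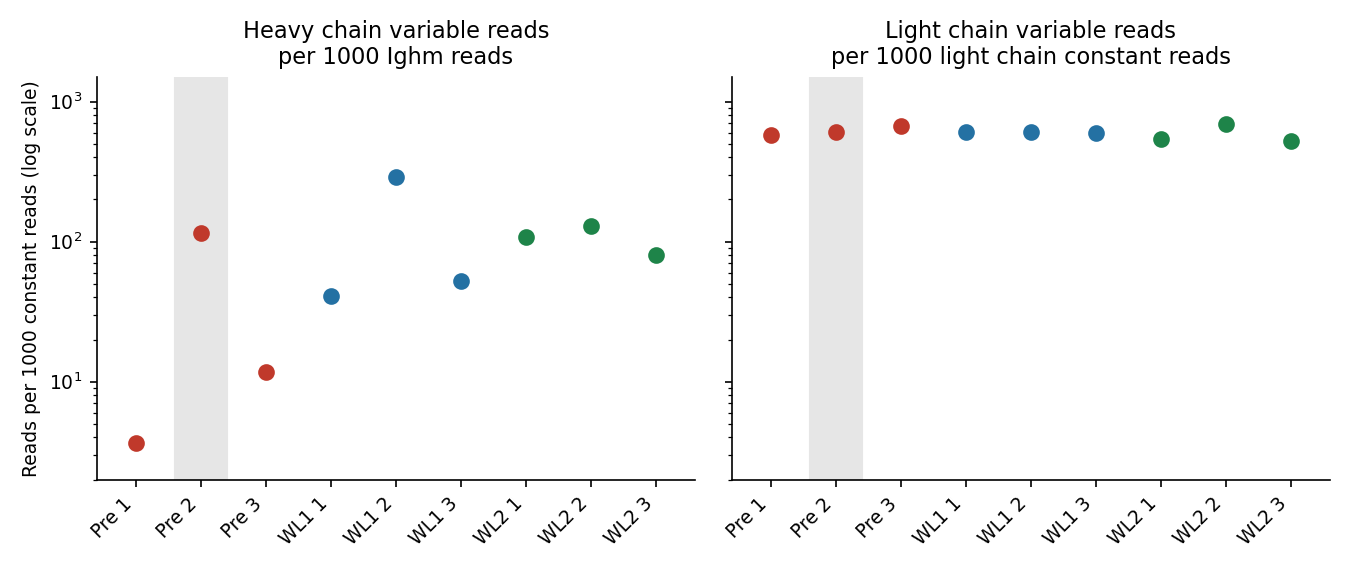
Variable reads per 1000 constant reads on a log axis in each library, for the heavy chain against *Ighm* (left) and for the light chains against *Igkc*, *Iglc1*, *Iglc2* and *Iglc3* together (right), with Pre 2 shaded. The heavy chain values run from 3.63 in Pre 1 to 288 in WL1 2, and the light chain values lie between 522 and 688.

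Another transcript at the *Ighm* locus moved with *Ighm*. The long non-coding RNA ENSMUSG00000120754, chosen after its values were seen, lies on the same strand 3563 bases upstream of *Ighm*, in the interval between *Ighm* and the joining genes, and no gene of the table overlapped *Ighm*. It had 87, 189 and 83 reads at Pre, 17, 31 and 18 at WL1, and 10, 20 and 6 at WL2, with no overlap between Pre and the other phases. The change was -2.51 on the log2 scale at WL1 (SE 0.471, adjusted p = 0.0132) and -3.24 at WL2 (SE 0.499, adjusted p = 0.00282). The other genes in this interval had few reads. Of them, the microRNA gene ENSMUSG00002076091 was also called as lower at WL2 (adjusted p = 0.0156) and not at WL1 (adjusted p = 0.0913). It had 17, 5 and 11 reads at Pre, 1, 2 and 2 at WL1, and none at WL2, so at Pre it was lowest in Pre 2, where *Ighm* was highest. The sources used here do not name the strand setting of the counting, so reads of either strand may have been counted.

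Markers of other cell types also moved between the phases. Of the 5 erythroid genes tested (globins and *Alas2*), 4 fell at WL1 and 3 at WL2 (4 and 1 without Pre 2), and the summed list ranged from 989 to 1620 CPM at Pre, 360 to 596 at WL1 and 421 to 784 at WL2. The hepatocyte list ranged from 4030 to 5830 CPM at Pre, 2480 to 3390 at WL1 and 1330 to 2160 at WL2, nearly all of it from *Hp*, an acute-phase protein also made by fat. Within that list, 1 of 8 genes fell at WL1 and 2 at WL2, 7 of 8 had an unadjusted p under 0.05 at WL2, and the median difference at WL2 was -3.36 on the log2 scale. *Alb* had 7.13, 33.5 and 62.8 CPM at Pre, 47.6, 1.61 and 5.06 at WL1, and 3.06, 4.25 and 5.44 at WL2, so that every WL2 library lay below every Pre library (adjusted p = 0.11). Of the 8 macrophage genes, none was called by edgeR against Pre (4 and 0 had an unadjusted p under 0.05, and DESeq2 called 3 and 0), and their sum ranged from 1290 to 2310 CPM at Pre, 2450 to 4630 at WL1 and 1460 to 2610 at WL2. Of the 10 adipocyte genes, 4 fell at WL1 and 2 at WL2, *Lep* from 4610 to 5940 CPM at Pre to 1150 to 1440 at WL2, and *Cfd* rose at WL2 by 1.61 on the log2 scale (adjusted p = 0.0299; without Pre 2 also 1.61, adjusted p = 0.0709). Without Pre 2, 4 adipocyte genes fell at WL1 and 3 at WL2. Genes of the epididymis and testis, the organs beside this fat pad, summed to at most 1.89 CPM, and neither of the 2 tested was called (1 and 0 had an unadjusted p under 0.05, and DESeq2 called none). The part of these genes in the change of *Ighm* was not tested.

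The other heavy chain constant genes were far less abundant than *Ighm* in every library but WL1 2. *Ighg1*, *Ighg2b* and *Ighg2c* were each set by a single library. *Ighd*, which is spliced from the same primary transcript as *Ighm* in mature B cells, had 64, 499 and 67 reads at Pre, 44, 56 and 16 at WL1, and 35, 43 and 65 at WL2. In CPM, every WL1 library lay below every Pre library, with or without Pre 2, while Pre and WL2 overlapped. The number of *Ighm* reads per *Ighd* read was 297, 91.0 and 403 at Pre, 66.5, 62.3 and 317 at WL1, and 122, 95.5 and 36.4 at WL2. The difference in *Ighd* was -2.54 on the log2 scale at WL1 (SE 0.787, adjusted p = 0.0799) and -2.08 at WL2 (SE 0.77, adjusted p = 0.118). Without Pre 2 it was -0.80 (SE 0.436, adjusted p = 0.306) and -0.34 (SE 0.433, adjusted p = 0.678).

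*Igha*, the constant gene of IgA, had 2, 512 and 191 reads at Pre, 12, 70 and 29 at WL1, and 0, 66 and 2 at WL2. Reads of *Igha* were therefore found in 8 of 9 libraries, with Pre 2 and Pre 3 the highest. Among the IgG genes, *Ighg2b* had 2782 reads in WL1 2, 98.9% of its reads outside Pre 2, and 0 to 58 reads in each other library. *Ighg3* had 134 reads in WL1 1, 126 in Pre 2, 41 in WL2 1 and 11 or fewer elsewhere. *Ighg1* had 330 reads in Pre 2 and at most 2 in any other library. *Ighg2c*, an IgG2 subclass gene of the C57BL/6 strain, had 228 reads in Pre 2 and at most 1 elsewhere. In each library other than WL1 2, *Ighm* held 93.9% or more of the heavy constant reads, counted as reads and not per length.

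**Figure D4:**
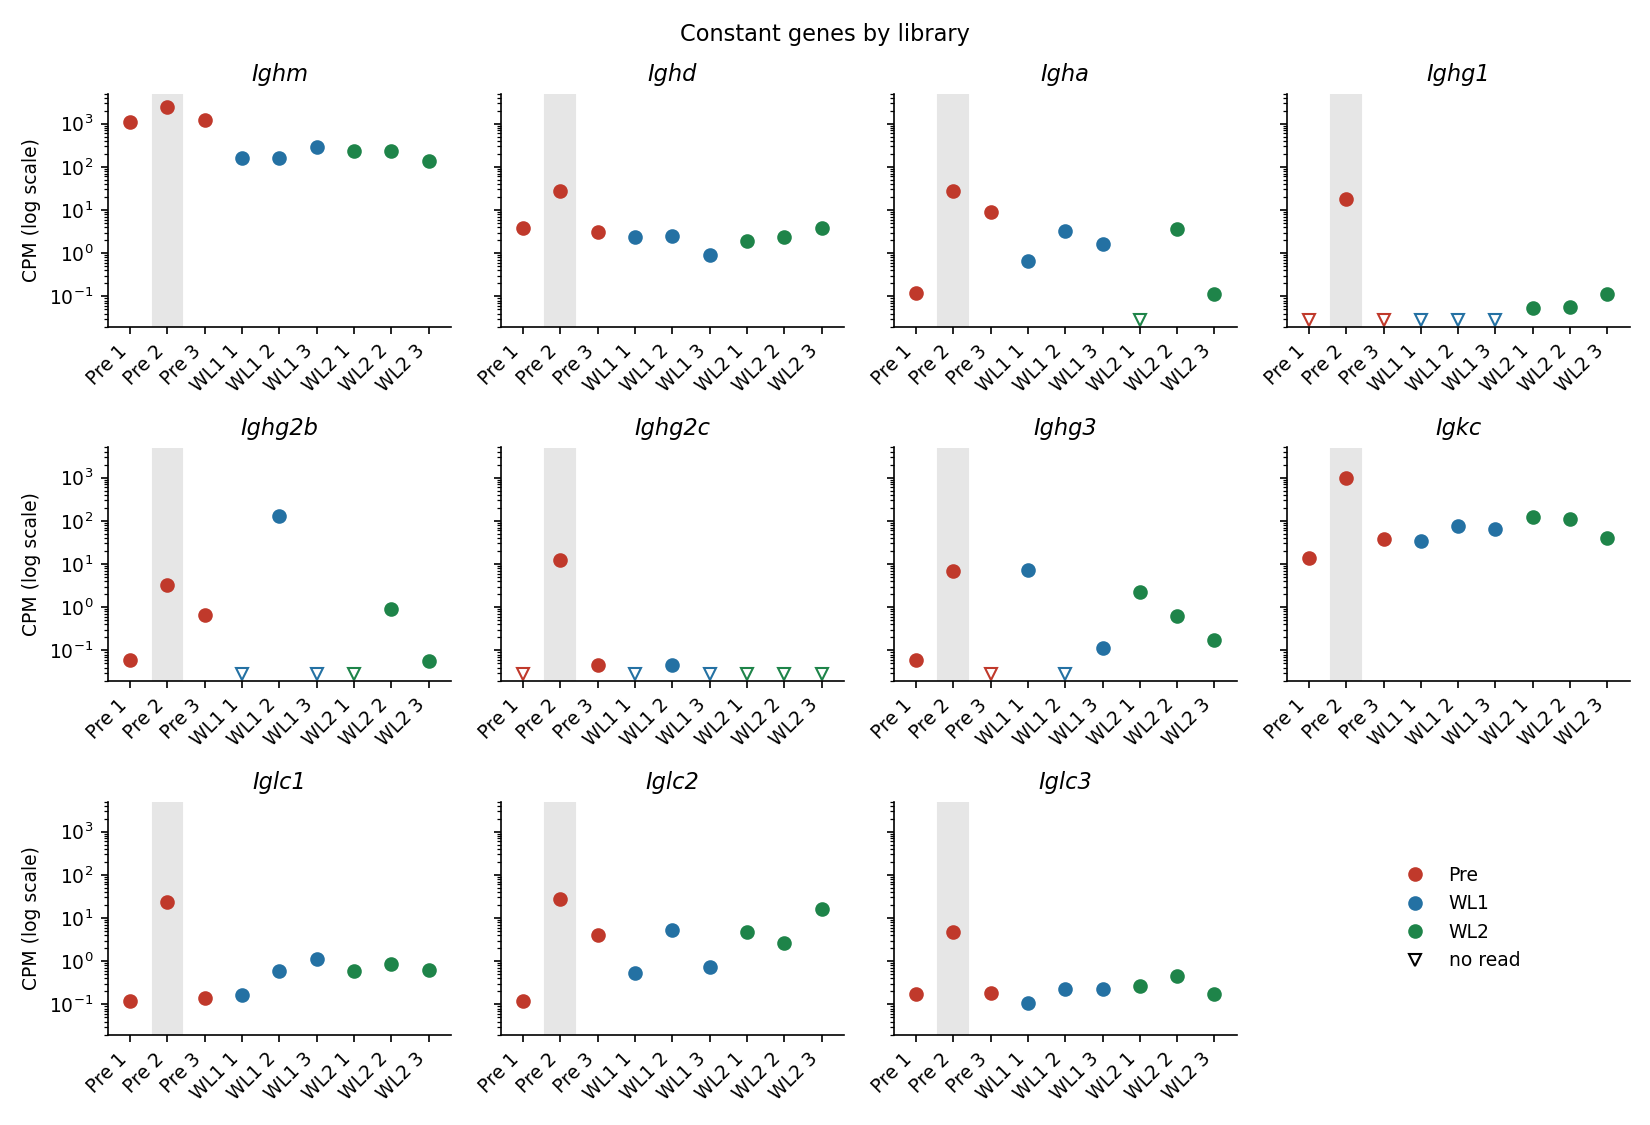
CPM on a log axis of each of the 11 constant genes in the 9 libraries, coloured by phase, with Pre 2 shaded and libraries without a read drawn as open triangles at the bottom. *Ighm* separates Pre from both weight loss phases, *Ighg1* and *Ighg2c* are near 0 outside Pre 2, and *Ighg2b* peaks in WL1 2.

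Of the light chains, kappa dominated. The share of *Igkc* among light chain constant reads was between 89.4% and 97.7% in 8 libraries and 70.0% in WL2 3 (Wilson 95% interval 67.1 to 72.8, for counting error only). The low share in WL2 3 went with 280 reads of *Iglc2* and 178 of its variable gene *Iglv2* there. *Iglc2* had 2, 509 and 90 reads at Pre, 10, 115 and 13 at WL1, and 89, 46 and 280 at WL2. *Iglc1* and *Iglc3* peaked in Pre 2 with 419 and 88 reads, and had at most 20 and 8 reads in any other library. *Iglc2* and *Iglc3* are 96.2% identical in coding sequence, as are *Iglv1* and *Iglv2* at 96.9%, so reads may have been divided between them. None of the lambda constant genes passed the threshold, and *Iglc2* differed by -2.26 on the log2 scale at WL1 (SE 1.3, adjusted p = 0.313) and -0.45 at WL2 (SE 1.21, adjusted p = 0.844).

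Over all members, few genes were called. At WL1 against Pre, 2 of the 138 members that passed the filter on low counts fell past the threshold (edgeR, adjusted p under 0.05), where 7.29% of all 18510 genes tested passed it, 4.69% as lower. At WL2 against Pre, 3 members fell, against 10% of all genes and 6.66% as lower. Between WL2 and WL1, no member passed edgeR's threshold, against 3.68% of all genes; 11 members had an unadjusted p under 0.05, and DESeq2 and limma called none. With this filter and these 9 libraries, the shares of members called were below the background in all 3 comparisons. Without a filter on low counts they were above it against Pre: 54 of 144 members (37.5%) were called at WL1 and 44 (30.6%) at WL2, against 6.3% and 7.17% of 29550 genes. These shares are over unlike sets, because members had 10 or more summed reads and the 29550 genes needed only a read in any library. Of the 138 members, 68 passed the filter through Pre 2 alone. Most of the calls added without the filter were of members tested in both fits, since only 6 members had not passed it. Why these calls changed was not tested. The median difference over the 138 members was -4.45 on the log2 scale at WL1 and -3.36 at WL2, where that over all genes was 0.02 and 0.01. The medians over the 138 members rest on the filter, because 68 of them passed it through Pre 2 alone, a library of Pre. They are therefore no measure of a fall of immunoglobulin genes in general. With members that had no read in a phase set to a bound of 3 reads, these medians were -3.25 and -2.77. Over the 70 members that passed without Pre 2 the medians were 1.66 and 2.51, and 3 and 2 of them were called, against 5.4% and 8.39% of all genes. These medians rest on the filter, because 54 of the 70 passed it through weight loss libraries alone and 31 had no read in Pre 1 and Pre 3. With members that had no read in a phase set to the bound of 3 reads, they were 1.51 over 55 members and 1.92 over 59.

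The called variable genes rested on low counts. *Ighv1-52*, a heavy chain variable gene, had 46, 13 and 32 reads at Pre, 0, 1 and 0 at WL1, and 0, 0 and 1 at WL2. Its CPM was 92.9 times higher at Pre than at WL1 (exact counting interval 16.3 to 3710, adjusted p = 0.007) and 85.4 times higher than at WL2 (15.0 to 3410, adjusted p = 0.00462). *Ighv1-52* reached 0.5 CPM only in Pre libraries, so it passed the filter through the phase in which it was high. It is 98.6% identical to *Ighv1-61* over its coding sequence. *Igkv4-59*, a kappa variable gene, had 0, 106 and 282 reads at Pre, 0, 4 and 9 at WL1, and 0, 3 and 0 at WL2. It passed the threshold at WL2 (adjusted p = 0.0367) and not at WL1 (adjusted p = 0.0719), had no read in Pre 1, and did not pass at WL2 without Pre 2 (adjusted p = 0.0537). Without Pre 2, *Igkv4-91* was called as higher at WL1 (adjusted p = 0.0496), with 12, 7 and 6 reads against 0 in Pre 1 and Pre 3. With 3 reads allowed for Pre 1 and Pre 3 together, and the WL1 reads taken as counted, that is 5.55-fold higher or more. In this fit *Igkv4-91* passed the filter through WL1 1 alone, a library of the phase in which it was called higher. With Pre 2, which held 211 reads of it, *Igkv4-91* did not pass (adjusted p = 0.254).

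Most variable genes were carried by a single library. Of the 126 variable members, 90 had most reads in Pre 2, and 48 had 90% or more of their reads there. In the other 8 libraries, 70 variable members had 10 or more reads together, and for 54 of these at least 50% of the reads came from 1 library. Pre 2 held reads of 160 variable genes (members or not) and the other libraries held between 28 and 57. Depth was unequal, since the libraries held between 212 and 16908 variable reads. At an equal depth of 212 reads, 62.8 variable genes were expected in Pre 2, 28.0 in Pre 1, 17.8 in Pre 3, 21.6 to 38.1 at WL1 and 26.7 to 37.0 at WL2. Pre 2 was thus the most varied library at equal depth.

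4 variable genes, *Ighv11-2*, *Igkv14-126*, *Iglv1* and *Iglv2*, had a read in all 9 libraries. *Ighv11-2* had 13, 1702 and 55 reads at Pre, 52, 8 and 140 at WL1, and 198, 121 and 32 at WL2. *Igkv14-126* had 30, 3970 and 134 reads at Pre, 197, 40 and 311 at WL1, and 583, 353 and 88 at WL2. The 2 genes thus followed each other from library to library, both lowest in WL1 2 or Pre 1 and highest in Pre 2. The number of *Igkv14-126* reads per *Ighv11-2* read stayed between 2.22 and 5.0, as raw reads. Neither gene was called: *Ighv11-2* differed by -3.16 on the log2 scale at WL1 (SE 1.47, adjusted p = 0.22) and *Igkv14-126* by -2.93 (SE 1.43, adjusted p = 0.239). Without Pre 2, the differences at WL1 were 1.10 (SE 1.05, adjusted p = 0.584) and 1.29 (SE 0.941, adjusted p = 0.456).

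As a share of reads, this pair was prominent in every phase. *Ighv11-2* made up 18.8%, 32.5% and 17.2% of heavy chain variable reads at Pre, 43.7%, 0.796% and 52.4% at WL1, and 43.0%, 22.8% and 16.9% at WL2. *Igkv14-126* made up 21.6%, 36.2% and 25.0% of kappa variable reads at Pre, 50.9%, 4.18% and 44.4% at WL1, and 49.1%, 25.4% and 27.3% at WL2. The phases overlapped in both shares, and WL1 2 was the lowest library in both. *Ighv11-2* is 98.9% identical to *Ighv11-1*, which had 1 read in all libraries together, and *Igkv14-126* is 91.5% identical to its nearest neighbour *Igkv14-111*. *Ighv12-3* and *Igkv4-91*, known as another pair of B-1 cells that bind phosphatidylcholine, were minor, with at most 1.68% of heavy and 3.1% of kappa variable reads.

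**Figure D5:**
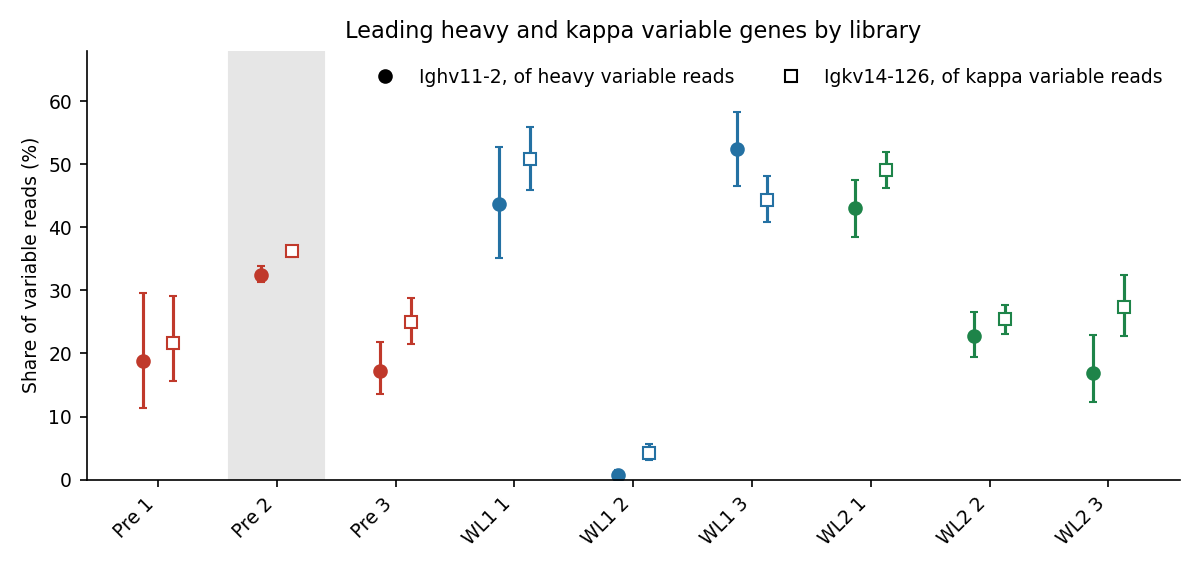
Share of heavy chain variable reads on *Ighv11-2* (filled circles) and of kappa variable reads on *Igkv14-126* (open squares) in each library, in percent, coloured by phase, with Wilson 95% intervals that cover counting error only and Pre 2 shaded. Both genes hold 16.9% or more of their chain in 8 libraries and fall to 0.796% and 4.18% in WL1 2.

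In the remaining libraries other variable genes came first, a different one each time. In WL1 2, *Ighv2-6* had 827 reads, 82.2% of all heavy chain variable reads in that library (79.7 to 84.4), and *Igkv19-93* had 699 reads, 64.5% of light chain variable reads (61.6 to 67.3). This was the library with 2782 reads of *Ighg2b*. *Ighv2-6* had at most 4 reads in any other library, whereas *Igkv19-93* also had 543 in Pre 2 and 17 or fewer elsewhere. In WL2 2, *Ighv9-3* led with 185 reads and *Igkv1-117* with 494. *Igkv1-117* also had 225 reads in Pre 2 and 99 in WL1 1. The leading genes of the next 3 libraries were named after their values were seen. *Ighv1-52* (46 reads) and *Igkv8-24* (83) led in Pre 1, *Ighv1-82* (133) and *Igkv4-59* (282) in Pre 3, and *Ighv5-17* (44) and *Iglv2* (178) in WL2 3. In Pre 2, the third gene after *Igkv14-126* and *Ighv11-2* was *Igkv3-2* with 762 reads, which had at most 9 reads in any other library. The 3 leading heavy chain variable genes of a library held 62.6% to 94.3% of its heavy chain variable reads in the 8 libraries and 41.4% in Pre 2. Clones were not assembled, since the counts hold no junction sequences, and 67 of the 126 variable members are 95% or more identical to another variable gene.

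The 7 joining genes, short segments of which few reads can be assigned, had 3, 132 and 10 reads together at Pre, 4, 4 and 2 at WL1, and 5, 5 and 7 at WL2, and none was called. Members just inside the minimum of 10 summed reads were *Ighv1-11* with 10 reads and *Igkv5-45*, *Igkv8-16* and *Igkv13-84* with 11, and those just outside were 5 genes with 9 reads, such as *Ighv14-3*, and 3 with 8, such as *Ighv5-15*. *Ighv1-11* had 8 of its reads in WL1 1, and *Ighv14-3* had all 9 in Pre 2.

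The genes through which B cells make and use antibody were read from the same fit, in lists chosen with earlier results of these data known. Of the B cell receptor and surface list, 1 of 14 genes rose at WL1, none passed edgeR's threshold at WL2 against Pre (0 with an unadjusted p under 0.05, and 0 called by DESeq2), and 11 of 14 were highest in Pre 2. The gene that rose was *Cd180*, a receptor of B cells and macrophages, with 15.0, 21.3 and 22.0 CPM at Pre, 55.3, 57.8 and 78.1 at WL1, and 36.6, 14.4 and 14.0 at WL2. It rose by 1.71 on the log2 scale at WL1 (SE 0.342, adjusted p = 0.0171) and was lower again at WL2 than at WL1, by a difference of -1.55 (adjusted p = 0.037, SE 0.341). *Cd37*, a tetraspanin of leukocytes, was the most abundant of the list with 26.5 to 111 CPM. Without Pre 2, *Ms4a1* rose at WL2 by 2.39 (SE 0.515, adjusted p = 0.021) and *Ly6d* by 2.12 (SE 0.554, adjusted p = 0.0464), from a mean below 1 CPM in Pre 1 and Pre 3. With Pre 2, their differences at WL2 were -2.74 (SE 1.34, adjusted p = 0.227) and -2.29 (SE 1.23, adjusted p = 0.269). The median of the 14 genes was -2.41 at WL1 and -2.08 at WL2 with Pre 2, and 1.25 and 0.97 over the 13 tested without it.

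Of the 14 B cell transcription and signalling genes, *Blnk*, an adaptor of the B cell receptor also expressed in macrophages, rose at WL1 by 1.72 (SE 0.429, adjusted p = 0.0391). *Ciita*, the activator of MHC class II genes, fell at WL2 against Pre by 1.35 (SE 0.227, adjusted p = 0.00476) and against WL1 by 1.46 (SE 0.227, adjusted p = 0.0122). *Ebf1*, a transcription factor of B cells and of adipocytes, rose at WL2 by 0.69 (SE 0.195, adjusted p = 0.0492). *Pax5*, the factor that maintains B cell identity, had 18.4 CPM in Pre 2 and 0.177 to 2.55 elsewhere, and *Pou2af1*, a coactivator at immunoglobulin promoters, had 36.7 against 0.236 to 2.6. Without Pre 2, *Blnk* (1.93 at WL1, adjusted p = 0.0576) and *Ebf1* (0.54 at WL2, adjusted p = 0.113) did not pass, and *Pou2af1* rose at WL2 by 2.35 (SE 0.533, adjusted p = 0.0269). With Pre 2, the difference in *Pou2af1* at WL2 was -2.50 (SE 1.29, adjusted p = 0.253). *Syk*, *Blnk* and *Btk*, kinases and an adaptor shared with macrophages, were highest in WL1 3, the library with the highest macrophage sum.

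Of the 16 genes of the antibody-secreting cell list, *Slamf7* rose at WL1 by 1.17 (SE 0.311, adjusted p = 0.0486) and was lower at WL2 than at WL1, by a difference of -1.5 (adjusted p = 0.0333, SE 0.315). *Edem1*, which directs misfolded glycoproteins to degradation, fell at WL2 by 0.51 (SE 0.121, adjusted p = 0.0255). Without Pre 2, neither passed against Pre, at 1.28 (adjusted p = 0.0707) and -0.46 (adjusted p = 0.0582). *Jchain*, which links IgM and IgA into polymers, had 3.83, 288 and 13.4 CPM at Pre, 8.84, 9.77 and 16 at WL1, and 37.4, 24.7 and 17.7 at WL2. It differed by -3.14 at WL1 (SE 1.19, adjusted p = 0.138) and -1.93 at WL2 (SE 1.12, adjusted p = 0.305), and like *Igkc* it was lowest in Pre 1. Without Pre 2 both differences turned, to 0.40 (SE 0.488, adjusted p = 0.676) and 1.61 (SE 0.497, adjusted p = 0.0805). *Mzb1*, a chaperone of antibody assembly, had 3.69 CPM in Pre 2 and 0 to 0.711 elsewhere. *Xbp1* and *Txndc5*, genes of the secretory pathway that other cells use as well, lay between 198 and 287 and between 134 and 244 CPM.

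Genes of B cell development in the bone marrow had few reads. *Rag1*, *Rag2* and *Vpreb2* had none in any library, *Dntt* and *Igll1* had at most 4 and 2, and *Vpreb1* and *Vpreb3*, parts of the surrogate light chain, had 2 to 18 and 2 to 20 reads in each of the 9 libraries. In 5 lists, no gene was called by edgeR against Pre with all 9 libraries. They covered recombination, switching and the germinal centre, the surrogate light chain, B cell attraction and survival (*Cxcl12*, *Cxcr4* and *Il33* among them), antibody receptors and transport, and T cells. Together with the macrophage list they held 52 tested genes, of which 15 at WL1 and 12 at WL2 had an unadjusted p under 0.05, and DESeq2 called 9 and 3. Among the 9 were 4 chains of antibody receptors, *Fcer1g*, *Fcgr1*, *Fcgr3* and *Fcgr4*, which myeloid cells use to bind IgG. *Fcgr3* had 54.5, 82.6 and 86.3 CPM at Pre, 111, 147 and 249 at WL1, and 138, 64.3 and 69.8 at WL2, and like the macrophage sum it was highest in WL1 3. *Fcgrt*, the neonatal Fc receptor that recycles IgG, lay between 267 and 430 CPM. Without Pre 2, *Fcmr*, the receptor for IgM, was called as higher at WL2 (adjusted p = 0.0331), from 1 read in Pre 1 and 2 in Pre 3 to 8, 22 and 24 at WL2, and *Fas* fell at WL1 by 0.69 (SE 0.16, adjusted p = 0.0393). With Pre 2, which held 477 reads of *Fcmr*, its difference at WL2 was -3.10 (SE 1.52, adjusted p = 0.228). That of *Fas* at WL1 was then -0.48 (SE 0.208, adjusted p = 0.191). In the lymph node stroma and vessel list, no gene was called by edgeR against Pre (5 and 1 had an unadjusted p under 0.05, and DESeq2 called 1 and 0), and *Enpp2*, the enzyme that makes lysophosphatidic acid, rose between WL1 and WL2 by 0.93 (adjusted p = 0.0364, SE 0.201). Without Pre 2, *Fcna*, a lectin that activates complement, was called as higher at WL1, by 0.80 (SE 0.185, adjusted p = 0.0385), and at WL2, by 1.84 (SE 0.19, adjusted p = 0.000499). With Pre 2, its differences were -0.09 at WL1 (SE 0.424, adjusted p = 0.927) and 0.96 at WL2 (SE 0.424, adjusted p = 0.185). In the B-1 cell list, *Cd9* alone of 8 genes rose at WL1, by 1.17 (SE 0.289, adjusted p = 0.0388), while DESeq2 called 2 genes, *Cd9* and *Itgam*. Neither is particular to B-1 cells: *Itgam* is also in the macrophage list, and the paper describes adipocyte progenitors that become CD9-high in obesity. Like the macrophage sum, *Cd9* was highest in WL1 3, at 216 CPM. Without Pre 2, *Cd9* was at 1.19 and did not pass (adjusted p = 0.0742), and *Ptpn22*, a phosphatase of lymphocytes, was called as higher at WL1, by 1.36 (SE 0.299, adjusted p = 0.0323). With Pre 2, the difference in *Ptpn22* at WL1 was 0.93 (SE 0.334, adjusted p = 0.123). *Cd5*, the surface marker of B-1a cells and of T cells, had 4.63 CPM in Pre 2 and 0.118 to 0.78 elsewhere.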

How the data were processed

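RNA was purified from epididymal adipose tissue, and libraries were made and sequenced by Novogene. The authors deposited raw counts per gene and FPKM (fragments scaled to gene length and library size). HISAT2, HISAT, TopHat2, CASAVA, GRCm38 and mm10 are named in the submitters' processing notes; the sources used here name neither the counting program nor the strand setting. Differences in the deposited counts were tested by edgeR 4.0.16 under R 4.3.3 (glmQLFit, glmQLFTest, TMM factors, 1 model over 9 libraries). A gene entered when 1 or more libraries reached 0.5 CPM, which left 18510 genes, with Benjamini-Hochberg adjustment over all of them and a threshold of 0.05. No p was adjusted over the immunoglobulin genes alone. Alternatives were DESeq2 1.42.0, limma 3.58.1 on log2(FPKM + 1) and log2(FPKM + 0.1), other filters and scalings, the compared phases only, a replicate block and each library left out. The fit was tested on simulated data.

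The members and gene lists were chosen with earlier results of these data known. Named were all constant genes, the 3 heavy, 3 kappa and 2 lambda variable genes with most reads outside Pre 2, the 3 with most reads in Pre 2, all called members, the genes nearest the minimum, and of each list called genes and the 3 most abundant. Library totals were 16434450 to 22729072 counts, and libraries of a phase differed beyond counting noise (chi-square per degree of freedom 9.88 or more). Identity between variable genes was computed by alignment of GENCODE M21 coding sequences. Promoter and protein sequences of these genes were not used here. A few genes of these lists are not reported here.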

Additional observations from a re-analysis of the deposited data

How the results depend on the processing

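*Ighm* fell past the threshold in 20 of 20 settings in both comparisons with Pre, by -3.35 to -2.56 at WL1 (highest adjusted p = 0.013) and -3.22 to -2.56 at WL2 (highest adjusted p = 0.00567). The number of members called depended on the processing. It was 54, 44 and 8 (WL1 against Pre, WL2 against Pre, WL2 against WL1) without a filter on low counts, 4, 2 and 0 with DESeq2, and with each library left out it ranged from 2 to 7, 2 to 8 and 0 to 0; without Pre 1 it was 7 and 8, and without Pre 3 it was 6 and 5. With the replicate number as a block it was 8, 11 and 2. In their deviations from the phase means, same-numbered libraries correlated between -0.277 and 0.107, and not every library correlated best with its own number. With 3 libraries per phase, these values cannot show whether the numbers pair the libraries. The share of members called lay above that of all genes without a filter (37.5% against 6.3% at WL1, 30.6% against 7.17% at WL2), with the block (5.8% against 4.56%, 7.97% against 7.56%) and at WL1 without Pre 1 (5.07% against 3.05%), and below it in the other settings and comparisons. Without a filter these shares are over unlike sets, because members had 10 or more summed reads and other genes needed only a read in any library. Variable genes rest on few reads in most libraries. The part of depth in which of them were called was not tested, nor was the cause of the shifts between settings.

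The reversals below were all of differences that did not pass the threshold, on the log2 scale, with the range over left-out libraries. Without Pre 2, *Igkc* turned at WL1 (-3.15 to 1.17) and WL2 (-2.52 to 1.80), *Iglc1* at WL1 (-4.29 to 2.22) and WL2 (-4.05 to 2.37), *Iglc2* at WL1 (-4.07 to 0.019) and WL2 (-1.52 to 1.83), and *Ighg3* at WL2 (-2.52 to 4.97), the higher value being that without Pre 2 each time. *Iglc2* at WL2 also turned with limma (0.50 and 1.10 for the larger and smaller pseudocount) and with the block (1.07), and *Ighg3* at WL2 with limma at the smaller pseudocount (0.21). At WL1 against Pre, *Ighg2b* turned without WL1 2 (-7.58 to 6.78), and *Ighg3* with the block (-0.47) and without Pre 1, Pre 3 or WL1 1 (-5.32 to 6.22). Between WL2 and WL1, *Ighg2b* turned without WL1 2 (-10.3 to 5.58), *Ighg3* without WL1 1 (-2.6 to 4.14) and with limma at the smaller pseudocount (0.12), *Igha* without WL1 2, WL2 1 or WL2 3 (-4.88 to 0.17), and *Iglc1* without WL1 1 or WL2 2 (-0.29 to 0.85). *Ighg2c* moved to 0.0 without WL1 2 (-2.25 to 0.0). *Ighm* between WL2 and WL1, close to 0 throughout, was -0.0026 without a filter, -0.017 with the block and -0.14 to 0.35 with a library left out.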

Other observations

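Over the 9 libraries, the level of *Ighm* on a log scale was compared by Pearson's r with that of 14636 genes, as a description with no test. Most points share the split between Pre and weight loss, and the genes were chosen after their values were seen. The closest were *Mid1ip1*, a regulator of fatty acid synthesis (r = 0.990, and 0.982 over the 8 libraries without Pre 2), *P2rx6*, an ATP-gated channel subunit (0.983 and 0.970), *B4galt2*, a galactosyltransferase (0.981 and 0.971), *Tmem50b* (0.976 and 0.959) and *Slc25a1*, the mitochondrial citrate carrier (0.973 and 0.966). For *Igkc*, they were *Plac8* (0.972, and 0.923 without Pre 2), *Trbc1*, a constant gene of the T cell receptor (0.962 and 0.899), and *Jchain* (0.959 and 0.861). Between *Ighm* and *Igkc*, r was 0.316 over 9 libraries and -0.545 without Pre 2.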
